A study of Homo sapiens with 2 samples.

Results

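The genes of the TGF-beta, BMP and SMAD pathway were compared between PNU282987-treated and untreated human primitive macrophages. They were taken as the protein-coding rows whose symbol names a TGF-beta, BMP, GDF or inhibin beta ligand, one of their receptors, a SMAD, an LTBP or a SMURF, plus ENG, TGFBI, SKI, SKIL and TGIF1. This gave 58 genes of 46865 rows in all, of which 19666 were protein-coding. Cells of the PNU282987 library had 12 hours of exposure to 100 µM PNU282987, a selective agonist of α7-type nicotinic receptors. The Control library carries no agonist in its title or library name, although the protocol text is the same for both, and a vehicle is not stated. Both were macrophages differentiated for 30 days with cytokines and inhibitors from 1231A3, a wild-type human induced pluripotent stem cell line, as a model of microglia, the macrophages of the brain. The labels of the treated library conflict, since its treatment field names amiroid β, spelled so, where its title and library name give PNU282987, and it was grouped by its title. Each group is a single library, so the differences have no replicate check and carry no p-value. Both groups share 1 cell line, and how many cultures each library holds is not given in the sources used here.

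TGF-beta family ligands are secreted dimers that bring together type II and type I receptor kinases on the cell surface. The type I receptor then phosphorylates receptor SMADs, which bind SMAD4 and act on transcription in the nucleus. TGF-beta itself is secreted in a latent complex and must be released before it can bind. In mice, TGF-beta is required for the gene programme of mature microglia.

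The libraries held 36134391 reads for PNU282987 and 39316475 for Control. Reads were expressed as CPM, the usual unit of counts relative to the depth of the library, with totals scaled over all rows. Calls of higher or lower come from a fixed rule and no test. A called row has a mean of 1 CPM or more, a ratio of PNU282987 to Control of 2-fold or more, and a ratio whose 95% counting interval lies clear of 1. Counting intervals leave out the spread between cultures. Macrophage genes were abundant in both libraries, with CSF1R, the receptor for macrophage colony-stimulating factor, at 1059 CPM in PNU282987 and 1291 CPM in Control. Among 22 macrophage identity genes 21 were compared, with a median log2 ratio of -0.18. Of these 19.0% were called, against 5.77% of all loci compared, with 4 called higher and none lower. Those 4 were CD14, CEBPB, ITGAM and VSIG4, with CD14, a co-receptor for bacterial lipopolysaccharide, at 539 CPM in PNU282987 and 96.3 CPM in Control.

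Reads of genes used as markers of other cell types were also present. The 17 mesenchymal markers summed to 3321 CPM in PNU282987 and 2928 CPM in Control, with COL1A1 at 999 and 906 CPM in that order. None of the 15 compared was called, and their median log2 ratio was 0.14. The 15 endothelial markers summed to 171 CPM in PNU282987 and 240 CPM in Control. PECAM1, which macrophages also express, gave 84.0 CPM of that sum in PNU282987 and 135 CPM in Control, and EGFL7 gave 27.9 and 41.5 CPM in that order. KDR, an endothelial receptor of VEGF, stood the other way at 16.2 CPM in PNU282987 and 11.5 CPM in Control. Of 8 endothelial markers compared 3 had a ratio above 1 and 5 a ratio under 1, with a median log2 ratio of -0.20 and none called. CDH5, the endothelial cadherin, had 0.329 CPM in PNU282987 and 0.565 CPM in Control. Megakaryocyte markers summed to 171 and 206 CPM in that order, most of it from F13A1, which macrophages also express, at 154 and 186 CPM. Of 6 compared 1, or 16.7%, was called lower, GP1BA, with 36 reads in PNU282987 and 151 in Control. Of 16 pluripotent stem cell markers, POU5F1 had 0 reads in both libraries and 3 were compared, with none called, and LIN28B was at 25.1 CPM in PNU282987 and 15.8 CPM in Control. The lists share some genes, such as CSF1R and COL1A1. The part of these cells in the values below was not tested. In such bulk libraries fewer cells of a type and less RNA per cell cannot be told apart.

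Of the 58 genes, 41 reached a mean of 1 CPM and were compared. Another 17 did not, 4 of them with 0 reads in both libraries (BMP3, BMP15, GDF2 and GDF3). ACVR1B, ACVRL1 and BMP6 were called higher in PNU282987 and BMP7 was called lower, which is 9.76% of those compared. The background was 5.77% of all 14269 loci compared and 4.82% of the 12570 protein-coding ones. For higher calls alone the background was 2.96% of all loci and 2.43% of protein-coding ones, and for lower calls 2.81% and 2.39% in that order. The median log2 ratio of the 41 members was 0.16, against -0.01 over all loci compared, and 25 members had a ratio above 1 and 16 a ratio under 1. A ratio within 1.5-fold was found for 32 members, or 78.0%, against 82.4% of all loci. The counting interval excluded 1 for 73.2% of the members, for 67.1% of all loci and for 69.0% of protein-coding ones, so an interval clear of 1 was the common case at this depth.

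**Figure D1:**
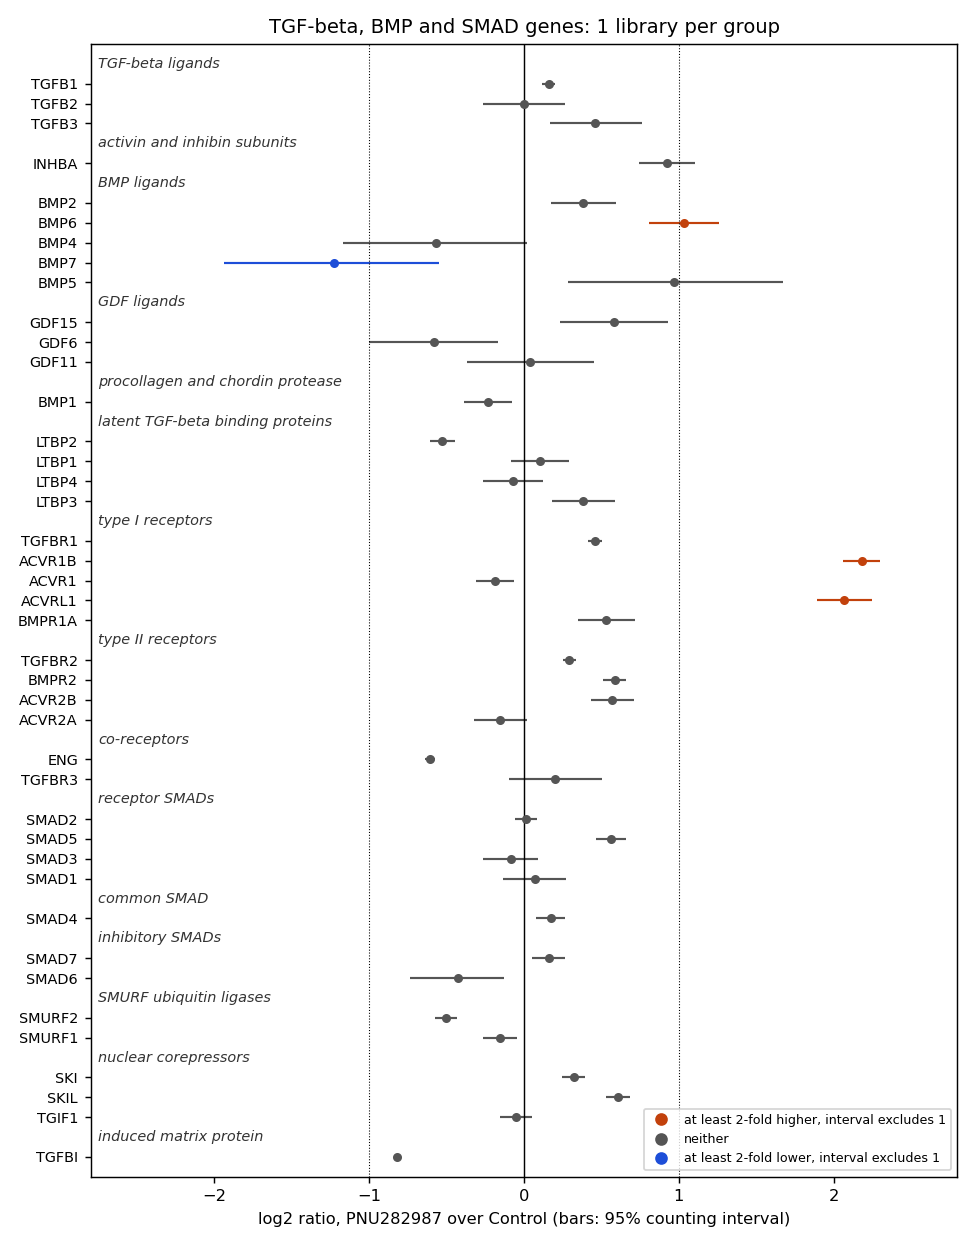
Log2 ratio of PNU282987 over Control for the 41 members with a mean of at least 1 CPM, in groups by role. Points are ratios of 1 library to 1 library, bars are 95% counting intervals and dotted lines mark 2-fold; ACVR1B at 2.18 and ACVRL1 at 2.07 stand apart from the other 39.

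**Figure D2:**
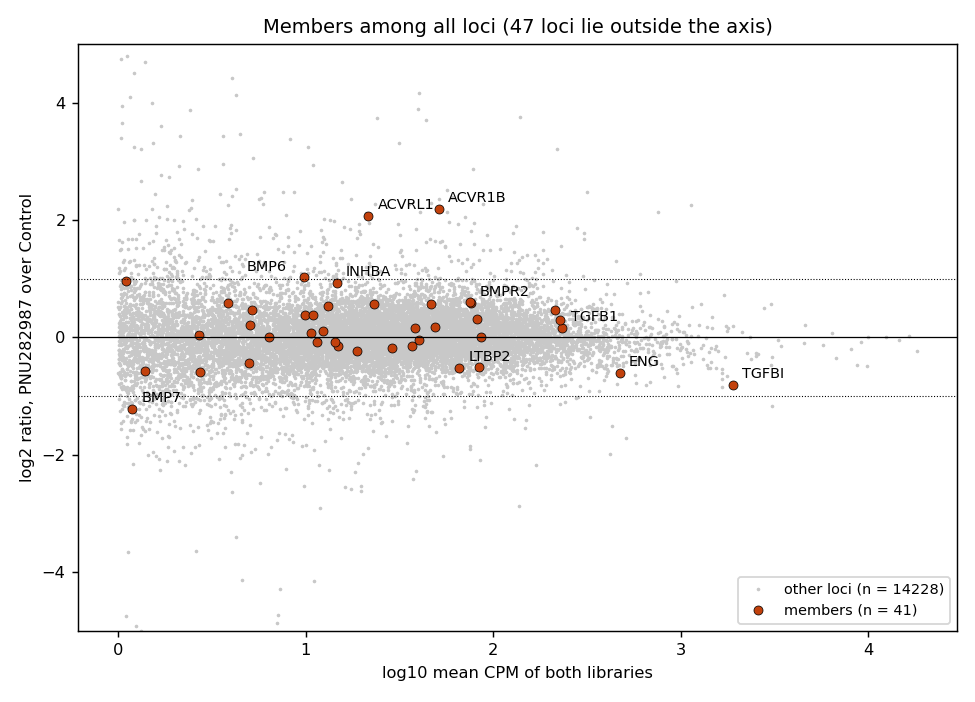
Log2 ratio against log10 mean CPM for every locus compared, with the 41 members as large points and all other loci in grey; the title counts the loci beyond the axis. Most members lie inside the dotted 2-fold lines, and TGFBI and ENG are the members with most reads.

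A pair of type I receptors showed the greatest differences among the members. ACVR1B (chromosome 12, 51951699 to 51997078, GRCh38), the type I receptor kinase of activins and nodal, had 3083 reads in PNU282987 and 727 in Control. Its level was 84.6 CPM in PNU282987 (exact Poisson interval 81.6 to 87.6) and 18.7 CPM in Control (17.3 to 20.1), and these intervals did not overlap. The log2 ratio was 2.18 (counting interval 2.06 to 2.30), a 4.53-fold higher level in PNU282987, and it ranked 93 from the top among the 14269 loci. ACVRL1 (chromosome 12, 51906944 to 51923361), a type I receptor known best from endothelium, where with endoglin it binds the ligands encoded by GDF2 and BMP10, had 1272 reads in PNU282987 and 324 in Control. That is 34.9 CPM (33.0 to 36.9) in PNU282987 and 8.31 CPM (7.43 to 9.27) in Control, again without overlap. Its log2 ratio was 2.07 (1.89 to 2.25), or 4.20-fold higher in PNU282987, at rank 100. Of all loci 1.27% were at least 3-fold higher with an interval clear of 1, and of protein-coding loci 0.899%. GDF2 had 0 reads in both libraries and BMP10 had 0 reads in PNU282987 and 4 in Control.

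ACVRL1 and ACVR1B are neighbours on chromosome 12, their starts lying 44.8 kb apart. Within 500 kb on either side of the start of ACVRL1 there were 31 annotated rows, and 6 of them were compared. Both receptors were called higher and none of the other 4 was called. TAMALIN, a scaffold protein gene whose start lies 100.0 kb from that of ACVRL1, had 87 reads in PNU282987 and 165 in Control, a log2 ratio of -0.83 (-1.22 to -0.44). The nuclear receptor NR4A1 had 100 reads in PNU282987 and 104 in Control, and the autophagy gene ATG101 had 741 and 855 in that order. KRT7, an epithelial keratin gene, had 166 reads in PNU282987 and 217 in Control. On the other side the nearest gene with reads, ANKRD33, had 5 in PNU282987 and 4 in Control. Neither receptor row overlaps another row with a RefSeq position. Rows without such a position were not searched, and how reads that map to several places were counted is not stated.

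**Figure D3:**
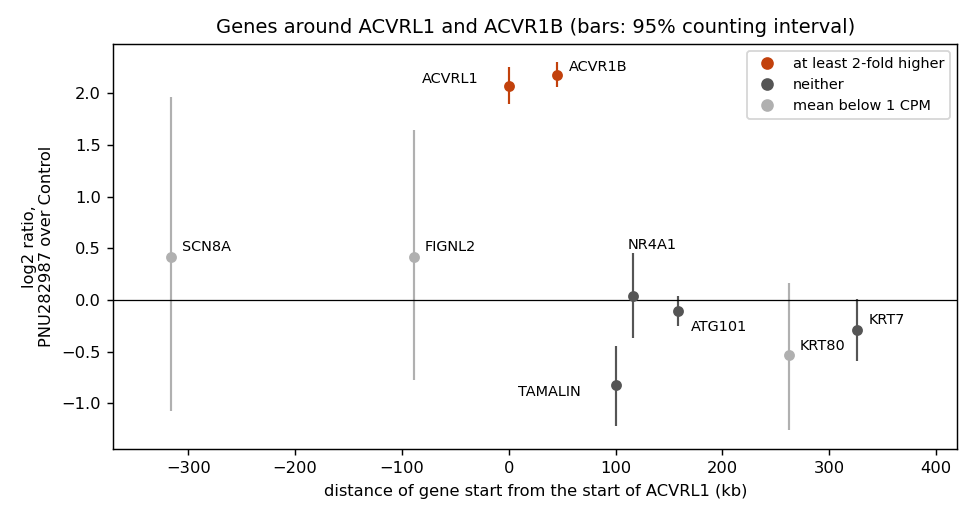
Log2 ratio of PNU282987 over Control for genes around ACVRL1, by the distance of their start from that of ACVRL1 in kilobases; bars are 95% counting intervals and genes with under 10 reads or with 0 reads in a library are left out. ACVRL1 and ACVR1B lie above 2 on the log2 scale, while TAMALIN, NR4A1, ATG101 and KRT7 lie between -0.83 and 0.04.

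The sequence at the start of ACVR1B is shown because this gene had the greatest ratio among the members. RefSeq windows of 250 bases before to 50 bases after a gene start (GRCh38.p14) were found for 50 of the 58 members, 91 windows in all, and ACVR1B has 2. ACVRL1 and BMP7 had no entry. BMP6 is shown as the other member called higher, SMAD6 for its paired SMAD box, and TGFBI as the member with most reads. Sequences run from the 5′ to the 3′ end of the gene's strand, with capitals for matches to the motifs GTCTAGAC (paired SMAD box), CAGAC (single SMAD box), GGCGCC (GC-rich SMAD element) and TGANTCA (AP-1 site), searched on both strands.
ACVR1B chr12:51951449-51951748 (plus strand): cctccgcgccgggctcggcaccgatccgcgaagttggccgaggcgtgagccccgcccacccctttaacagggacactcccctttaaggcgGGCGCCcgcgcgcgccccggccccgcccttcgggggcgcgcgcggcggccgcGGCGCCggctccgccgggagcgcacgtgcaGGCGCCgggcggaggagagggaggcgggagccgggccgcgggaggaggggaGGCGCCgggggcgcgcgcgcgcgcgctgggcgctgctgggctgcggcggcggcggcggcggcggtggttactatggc
ACVR1B chr12:51953134-51953433 (plus strand): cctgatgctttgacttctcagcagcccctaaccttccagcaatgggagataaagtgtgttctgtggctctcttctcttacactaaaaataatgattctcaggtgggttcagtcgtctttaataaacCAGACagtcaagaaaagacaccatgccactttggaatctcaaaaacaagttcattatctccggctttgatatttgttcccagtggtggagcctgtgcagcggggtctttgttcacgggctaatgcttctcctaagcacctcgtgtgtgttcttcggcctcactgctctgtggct
BMP6 chr6:7725849-7726148 (plus strand): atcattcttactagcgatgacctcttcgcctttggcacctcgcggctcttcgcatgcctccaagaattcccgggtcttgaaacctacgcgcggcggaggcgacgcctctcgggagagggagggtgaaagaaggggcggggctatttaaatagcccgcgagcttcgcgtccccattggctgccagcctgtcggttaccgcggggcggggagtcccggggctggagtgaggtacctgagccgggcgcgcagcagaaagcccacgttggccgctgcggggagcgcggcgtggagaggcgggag
SMAD6 chr15:66701986-66702285 (plus strand): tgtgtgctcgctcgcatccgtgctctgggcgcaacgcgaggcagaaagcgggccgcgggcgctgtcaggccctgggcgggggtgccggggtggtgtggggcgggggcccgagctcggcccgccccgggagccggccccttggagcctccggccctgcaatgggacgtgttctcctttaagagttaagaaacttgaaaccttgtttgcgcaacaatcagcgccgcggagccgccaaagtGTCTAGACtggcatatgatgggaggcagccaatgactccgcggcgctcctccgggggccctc
TGFBI chr5:136028738-136029037 (plus strand): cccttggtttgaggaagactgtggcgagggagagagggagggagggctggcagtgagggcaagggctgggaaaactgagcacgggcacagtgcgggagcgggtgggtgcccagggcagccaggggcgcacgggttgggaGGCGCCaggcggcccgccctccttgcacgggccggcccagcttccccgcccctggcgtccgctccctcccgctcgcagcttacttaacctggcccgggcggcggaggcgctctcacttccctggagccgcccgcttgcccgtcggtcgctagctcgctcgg

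The first ACVR1B window, with a GC content of 82.3%, held GGCGCC at 4 places, beginning 160, 108, 78 and 27 bases before the start. Among 35116 windows of all genes, 45 or 0.128% held that motif 4 times or more, and ACVR1B was the only member among them. The cut of 4 is the count seen in ACVR1B itself, and the windows were not matched for GC content. That share is therefore no measure of enrichment. One copy or more stood in 23.1% of the member windows and in 19.2% of all windows. The second ACVR1B window held a single CAGAC. SMAD6 was the only member with GTCTAGAC, which stood in 1 of 91 member windows, or 1.10%, and in 0.202% of all windows. CAGAC was found in 49.5% of member windows against 45.3% of all, and TGANTCA in 7.69% against 7.71%. BMP6 held no match to any of the 4 motifs. These are matches of letters and no binding was measured.

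**Figure D4:**
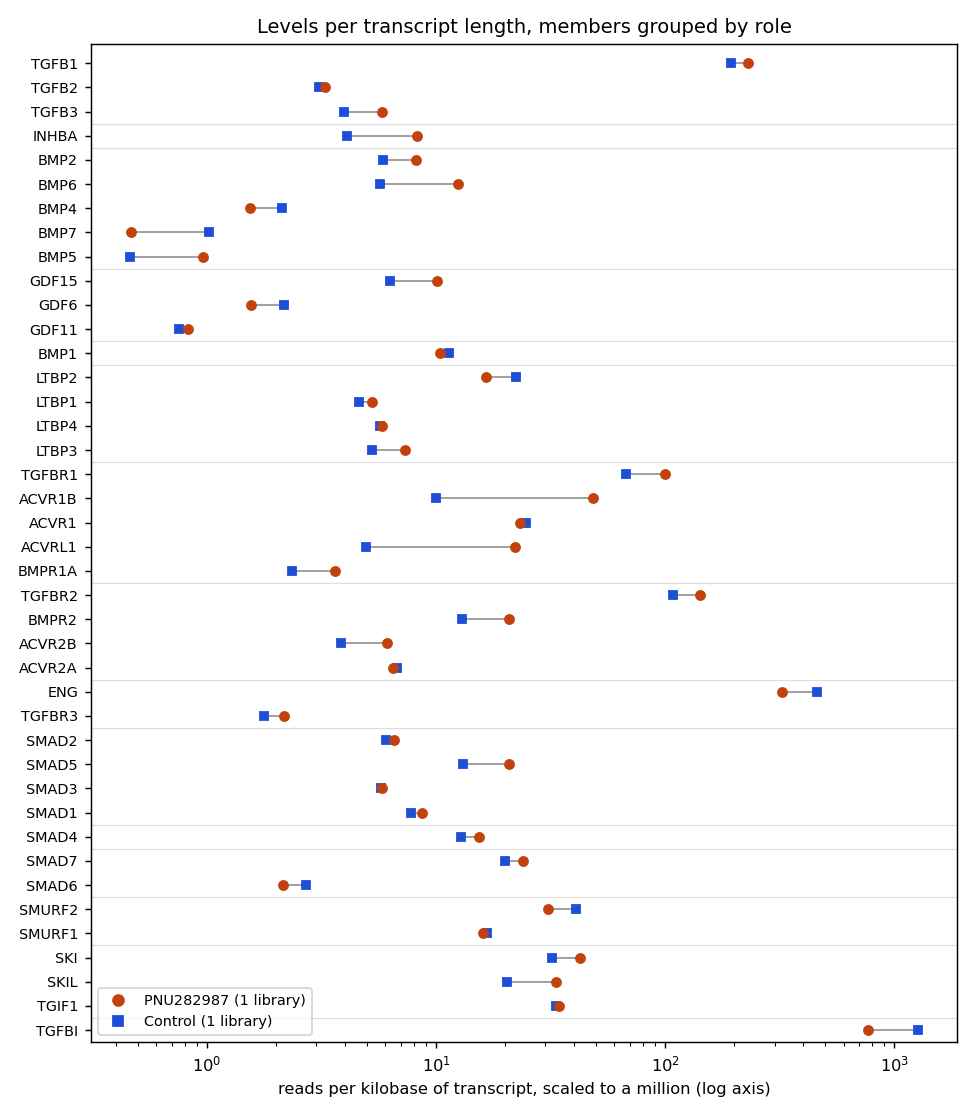
Reads per kilobase of the longest transcript, scaled to the same total in each library, for the 41 members on a log axis; circles are the PNU282987 library and squares the Control library. TGFBI is highest in both libraries, followed by ENG and TGFB1, and the widest gaps between circle and square belong to ACVR1B and ACVRL1.

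The other type I receptors differed less. TGFBR1, the type I receptor of TGF-beta, had 9017 reads in PNU282987 and 7010 in Control, or 247 and 180 CPM in that order, a log2 ratio of 0.46 (0.41 to 0.50). ACVR1, a BMP and activin receptor, had 987 and 1201 reads in the same order, a log2 ratio of -0.19 (-0.31 to -0.06). BMPR1A, a BMP receptor, had 567 reads in PNU282987 and 419 in Control, a log2 ratio of 0.53 (0.35 to 0.72). BMPR1B was below the filter, with 32 reads in PNU282987 and 15 in Control and a log2 ratio of 1.19 (0.26 to 2.18). ACVR1C, a receptor of nodal and related ligands, was also below it with 8 reads in PNU282987 and 0 in Control. With Control set to a floor of 3 reads its log2 ratio was 1.51, or 2.85-fold higher, and its counting interval began at 0.87.

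Within each role, levels of different genes were set side by side per length, as reads per kilobase of the longest annotated transcript, scaled to the same total in each library. Shares of summed reads or CPM given elsewhere are not corrected for length. On that scale the 7 type I receptors summed to 197 in PNU282987 and 110 in Control. TGFBR1 made up 50.3% of the sum in PNU282987 and 61.6% in Control. ACVR1B made up 24.6% in PNU282987 and 9.12% in Control, and ACVRL1 11.2% and 4.50% in that order. ACVR1 made up 11.8% in PNU282987 and 22.6% in Control. BMPR1A made up 1.83% in PNU282987 and 2.13% in Control, and the remaining 2 under 1% each in both. With the median length of the curated transcripts in place of the longest, ACVR1B stood at 76.3 in PNU282987 and 15.7 in Control, ACVRL1 at 37.7 and 8.40, ACVR1 at 19.5 and 20.8 and TGFBR1 at 88.8 and 60.4 in that order. The order of ACVR1 and ACVRL1 in PNU282987 thus depends on the length used.

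Among type II receptors none was called. TGFBR2, which binds TGF-beta, had 9112 reads in PNU282987 and 7951 in Control, or 250 and 204 CPM in that order, a log2 ratio of 0.29 (0.25 to 0.34). BMPR2, the main BMP type II receptor, had 3321 reads in PNU282987 and 2367 in Control, 91.1 and 60.7 CPM in that order, a log2 ratio of 0.58 (0.51 to 0.66). ACVR2B, which binds activins, had 1009 and 726 reads in the same order, a log2 ratio of 0.57 (0.43 to 0.71), and ACVR2A, its close relative, 515 and 612, a log2 ratio of -0.15 (-0.32 to 0.02) with an interval that included 1. Per length the 4 summed to 175 in PNU282987 and 132 in Control, and TGFBR2 made up 80.9% and 82.1% of that.

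Over type I and type II receptors together, 7 of the 9 compared had a ratio above 1, with a median log2 ratio of 0.53. Without ACVR1B and ACVRL1 the other 7 had a median of 0.46. Across compared loci where both were known, the log2 ratio moved with the GC content and length of the transcript. The trend was fitted without the loci of largest ratio, ACVR1B and ACVRL1 among them. It took up 15.1% of the spread of the loci fitted. With that trend removed, ACVR1B stood at 2.22 and ACVRL1 at 2.20, while the other 7 receptors had a median of 0.15. BMPR2 then stood at 0.13 (0.06 to 0.21), BMPR1A at 0.15 (-0.04 to 0.33), TGFBR1 at 0.18 (0.14 to 0.23) and ACVR2B at 0.28 (0.14 to 0.42). TGFBR2 stood at 0.24 (0.20 to 0.29) and ACVR1 at -0.19 (-0.32 to -0.07). ACVR2A stood at -0.40 (-0.57 to -0.23), so its interval then excluded 1. Its span overlaps ORC4, which held 904 reads in PNU282987 and 949 in Control, and the division of reads between them is uncertain.

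The accessory receptors went apart. ENG (chromosome 9, 127815016 to 127854658), endoglin, a co-receptor of BMPs and TGF-beta on endothelium and macrophages, had 13719 reads in PNU282987 and 22334 in Control. Its level was 376 CPM in PNU282987 (370 to 383) and 573 CPM in Control (566 to 581), and the intervals did not overlap. The log2 ratio was -0.61 (-0.64 to -0.58), which is 1.52-fold lower in PNU282987 and within the 2-fold rule. With the GC and length trend taken out it was -0.38. Endothelial markers lay on both sides of 1, with a log2 ratio of -0.68 for PECAM1 and 0.49 (0.31 to 0.67) for KDR, and the part of endothelial cells in the ENG reads was not tested. TGFBR3, betaglycan, had 196 and 182 reads in that order, with an interval that included 1.

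Of the ligands, TGFB1 was by far the most abundant per length, at 231 in PNU282987 and 194 in Control, and made up 96.2% and 96.5% of the TGF-beta ligand sum in that order. It had 8908 reads in PNU282987 and 8526 in Control, 244 and 219 CPM in that order, a log2 ratio of 0.16 (0.12 to 0.20). With the GC and length trend removed the log2 ratio of TGFB1 was 0.40 (0.36 to 0.44). TGFB2 had 231 reads in PNU282987 and 247 in Control and a log2 ratio near 0 whose sign changed with the scaling. TGFB3 had 219 and 170 reads in that order, a log2 ratio of 0.46 (0.17 to 0.76). No TGF-beta ligand was called.

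INHBA, the subunit of activin A, had 699 reads in PNU282987 and 394 in Control, or 19.2 CPM (17.8 to 20.6) and 10.1 CPM (9.14 to 11.2) in that order. Its log2 ratio of 0.92 (0.74 to 1.11), or 1.90-fold, lay just short of 2-fold, and it was 0.67 (0.49 to 0.85) once the GC and length trend was taken out. INHBA was the only inhibin beta gene compared. INHBB had 0 reads in PNU282987 and 5 in Control, INHBC 3 in each and INHBE 8 and 3 in that order.

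BMP ligands went both ways at low levels. BMP6 (chromosome 6, 7726099 to 7881728), which in liver drives transcription of the iron hormone hepcidin, had 482 reads in PNU282987 and 252 in Control. That is 13.2 CPM in PNU282987 (12.1 to 14.5) and 6.47 CPM in Control (5.69 to 7.32), a log2 ratio of 1.03 (0.81 to 1.26) or 2.04-fold, just past the rule. Its annotated span overlaps TXNDC5 and a readthrough row, which held 5824 reads in PNU282987 and 5047 in Control together, and with these added the log2 ratio was 0.35. That sum mostly follows the added rows, and the division of reads between these rows is uncertain. BMP7 (chromosome 20, 57168753 to 57266641), a ligand studied mostly in kidney and bone, had 26 reads in PNU282987 and 65 in Control, or 0.713 CPM (0.466 to 1.04) and 1.67 CPM (1.29 to 2.13) in that order. Its log2 ratio was -1.23 (-1.94 to -0.55), 2.34-fold lower in PNU282987, at a mean close to the filter.

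BMP5 stood just outside the rule with 53 reads in PNU282987 and 29 in Control, a log2 ratio of 0.97 (0.29 to 1.67). BMP2 had 409 and 335 reads in that order, a log2 ratio of 0.38 (0.17 to 0.60). BMP4, used to start mesoderm in stem cell cultures, had 41 reads in PNU282987 and 65 in Control, with an interval that included 1. BMP6 and BMP2 made up 50.6% and 33.2% of the BMP ligand sum per length in PNU282987, and 34.3% and 35.2% in Control. BMP8A and BMP8B are near-identical genes with 14 to 41 reads each per library, and their division is uncertain.

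GDF15, a stress-induced cytokine, had 168 reads in PNU282987 and 120 in Control, a log2 ratio of 0.58 (0.24 to 0.93). GDF6 had 80 and 128 reads in that order, a log2 ratio of -0.58 with an interval that excluded 1. GDF11 had 100 reads in PNU282987 and 104 in Control, a log2 ratio of 0.04, or -0.27 when the overlapping gene SARNP is counted in. SARNP held 1258 reads in PNU282987 and 1642 in Control, so that sum mostly follows SARNP. GDF7, a ligand of neural tissue, was below the filter with 0 reads in PNU282987 and 14 in Control. With PNU282987 set to that same floor of 3 reads its log2 ratio was -2.13, or 4.37-fold lower, and its counting interval ended at -1.63. GDF5, GDF9 and GDF10 had at most 10 reads in either library.

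LTBP2 led the latent TGF-beta binding proteins per length, at 16.5 in PNU282987 and 22.3 in Control. LTBP1, LTBP3 and LTBP4 tether latent TGF-beta to the matrix, while LTBP2 is a matrix protein that does not bind it. LTBP2 had 1973 reads in PNU282987 and 3039 in Control, 54.1 and 78.0 CPM in that order, a log2 ratio of -0.53 (-0.61 to -0.44). LTBP1 had 464 and 462 reads in that order and LTBP4 406 and 456, with intervals that included 1. LTBP3 had 454 reads in PNU282987 and 372 in Control, a log2 ratio of 0.38 (0.18 to 0.59), though the assignment of its reads is uncertain and the sign is not firm. BMP1, a protease that cuts procollagens and the BMP antagonist chordin, had 628 and 788 reads in PNU282987 and Control, a log2 ratio of -0.23 (-0.38 to -0.08). With the GC and length trend removed it was -0.06 (-0.22 to 0.09), an interval that included 1.

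Among 21 genes that release or anchor latent TGF-beta, 20 were compared, with 2 called higher, 1 called lower and a median log2 ratio of 0.07. The share called was 15%, against 5.77% of all loci compared. ITGB8, the beta chain of an integrin that binds latent TGF-beta, had 382 reads in PNU282987 and 143 in Control, or 10.5 and 3.67 CPM in that order, a log2 ratio of 1.51 (1.23 to 1.80). Its partner chain ITGAV had 8817 and 8555 reads in that order, a log2 ratio of 0.14. PLAU, urokinase, which makes plasmin from plasminogen, had 189 CPM in PNU282987 and 68.4 CPM in Control, a log2 ratio of 1.46. The gelatinase MMP9 had 1888 CPM in PNU282987 and 4232 CPM in Control, a log2 ratio of -1.16. NRROS, which displays latent TGF-beta on microglia, had 76.6 CPM in PNU282987 and 98.6 CPM in Control, a log2 ratio of -0.36 (-0.44 to -0.29). LRRC32, which does so on regulatory T cells, had 12.8 and 12.7 CPM in that order.

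No SMAD was called. SMAD2 and SMAD3, which carry TGF-beta and activin signals, had 3146 and 504 reads in PNU282987 and 3329 and 572 in Control. Both had intervals that included 1, with log2 ratios of 0.01 (-0.06 to 0.09) for SMAD2 and -0.09 (-0.26 to 0.09) for SMAD3. With the GC and length trend removed, SMAD2 went to -0.44 (-0.51 to -0.37), where its sign turned and its interval excluded 1. It moved most of all compared members, just ahead of BMPR2. That trend rests on the longest transcript, and the interval leaves out the error of the trend. Of the SMADs that carry BMP signals, SMAD5 had 2030 reads in PNU282987 and 1468 in Control, a log2 ratio of 0.56 (0.47 to 0.66). Once the GC and length trend was taken out, SMAD5 stood at 0.23 (0.14 to 0.33). SMAD1 had 400 and 408 reads in that order and SMAD9 12 and 25, both with intervals that included 1. SMAD4, the shared partner, had 1888 reads in PNU282987 and 1790 in Control, a log2 ratio of 0.17, or -0.14 with that trend removed. The per-length order of the receptor SMADs depends on which transcript gives the length. With the longest transcript SMAD5 was highest, at 20.8 in PNU282987 and 13.2 in Control, with SMAD3 at 5.79 and 5.75 and SMAD2 at 6.54 and 6.06 in that order. With the median length of the curated transcripts SMAD3 was highest, at 19.0 in PNU282987 and 18.9 in Control, with SMAD5 at 17.0 and 10.8 and SMAD2 at 15.2 and 14.1 in that order. For SMAD2 the longest transcript has 34526 bases and the median is 12075.

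The inhibitory SMADs block receptors and recruit ubiquitin ligases. SMAD7, an early target of TGF-beta, had 1472 reads in PNU282987 and 1409 in Control, a log2 ratio of 0.16 (0.05 to 0.27). SMAD6, a target of BMPs, had 155 and 223 reads in that order, a log2 ratio of -0.43 (-0.73 to -0.13). The ubiquitin ligase SMURF2 had 2520 reads in PNU282987 and 3817 in Control, 69.1 and 97.9 CPM in that order, a log2 ratio of -0.50 (-0.58 to -0.43). It was -0.75 once the GC and length trend was taken out. Its pseudogene copy lies in a readthrough row, SMURF2P1-LRRC37BP1, and reads of near-identical copies can be divided between rows. SMURF1 had 1279 and 1522 reads in PNU282987 and Control, a log2 ratio of -0.15 (-0.26 to -0.05).

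The nuclear corepressors restrain SMAD activity. SKIL, both a corepressor and a TGF-beta target, had 3326 reads in PNU282987 and 2337 in Control, 91.2 and 60.0 CPM in that order, a log2 ratio of 0.61 (0.53 to 0.68). It was 0.23 once the GC and length trend was taken out. SKI, its relative, had 3330 and 2852 reads in that order, a log2 ratio of 0.32 (0.25 to 0.39). TGIF1 had 1448 reads in PNU282987 and 1604 in Control, with an interval that included 1.

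TGFBI (chromosome 5, 136028988 to 136063818), a secreted matrix protein named for its induction by TGF-beta, held most reads of all members. It had 49925 reads in PNU282987 and 94115 in Control, 1369 CPM (1357 to 1381) and 2415 CPM (2400 to 2431) in that order, and the intervals did not overlap. The log2 ratio was -0.82 (-0.83 to -0.80), which is 1.76-fold lower in PNU282987 and short of the rule. TGFBI took 38.5% of the reads of the 58 genes in PNU282987 and 53.8% in Control. All 58 together took 0.359% of the reads in PNU282987 and 0.445% in Control. TGFBI and ENG took 49.1% of the members' reads in PNU282987 and 66.5% in Control.

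Common target genes of SMADs divided. Of 31 genes on that list 27 were compared, 2 were called higher and 1 lower, and the median log2 ratio was 0.12. The share called was 11.1%, against 5.77% of all loci compared. ID3, a BMP target that blocks helix-loop-helix factors, had 145 reads in PNU282987 and 339 in Control, or 3.98 and 8.70 CPM in that order, a log2 ratio of -1.13 (-1.42 to -0.84). Its relative ID2 had 3368 and 5945 reads in that order, a log2 ratio of -0.72 (-0.79 to -0.66), and ID1 had 28 and 46, with an interval that included 1. HAMP, the hepcidin gene, was below the filter with 8 reads in PNU282987 and 37 in Control, a log2 ratio of -2.11 (-3.43 to -0.99). ATOH8, another BMP target, stood the other way with 194 reads in PNU282987 and 84 in Control, a log2 ratio of 1.30 (0.93 to 1.69). MYC, which TGF-beta represses in epithelium, had 59.9 CPM in PNU282987 and 26.4 CPM in Control, a log2 ratio of 1.18.

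PMEPA1, a target that dampens signalling, had 328 reads in PNU282987 and 274 in Control, a log2 ratio of 0.36 (0.12 to 0.59). The collagens on the list are made by mesenchymal cells, and COL3A1 had 49172 reads in PNU282987 and 45324 in Control, a log2 ratio of 0.21.

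Among 20 genes linked to TGF-beta in microglia, 18 were compared, with none called higher and 1 called lower. Whether TGF-beta raises or lowers each listed gene was not checked, APOE included, so their median gives no direction of TGF-beta signalling. The median log2 ratio was -0.35, against -0.01 over all loci, with 12 of 18 under 1. The fractalkine receptor CX3CR1 was the one called lower, with 181 reads in PNU282987 and 1160 in Control, a log2 ratio of -2.58. The complement gene C1QA had 13424 and 17125 reads in that order, a log2 ratio of -0.26 (-0.29 to -0.22). APOE, the lipid carrier, had 28171 reads in PNU282987 and 43555 in Control, a log2 ratio of -0.53 (-0.55 to -0.51). Among the 6 with a ratio above 1, the purine receptor P2RY12 had 73 reads in PNU282987 and 55 in Control, with an interval that included 1. The receptors GPR34 and MERTK had log2 ratios of 0.15 (0.11 to 0.19) and 0.09 (0.04 to 0.13). The single call is 5.56% of the genes compared, against the background of 5.77% of all loci.

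The remaining pathway genes showed no call, where 5.77% of all loci compared were called. The 24 secreted and membrane antagonists had 13 compared and a median log2 ratio of 0.09, with the TGF-beta co-receptor CD109 at 215 CPM in PNU282987 and 220 CPM in Control and the BMP modulator TWSG1 at 59.1 and 47.7 CPM in that order. Other co-receptors had 5 of 9 compared and a median of -0.02, with NRP1 at 895 CPM in PNU282987 and 907 CPM in Control and CD44 at 360 and 497 CPM in that order. The 20 genes of SMAD turnover and adaptors had a median of 0.06, with FKBP1A, which holds type I receptors inactive, at 249 CPM in PNU282987 and 258 CPM in Control and STRAP at 103 and 106 CPM. SMAD nuclear partners had 20 of 22 compared and a median of 0.17, with JUNB at 160 CPM in PNU282987 and 102 CPM in Control and ZEB2 at 418 and 298 CPM in that order. The 16 genes of the non-SMAD kinase arm had a median of 0.17, with RHOA at 626 CPM in PNU282987 and 679 CPM in Control and LIMK1 at 166 and 144 CPM in that order.

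**Figure D5:**
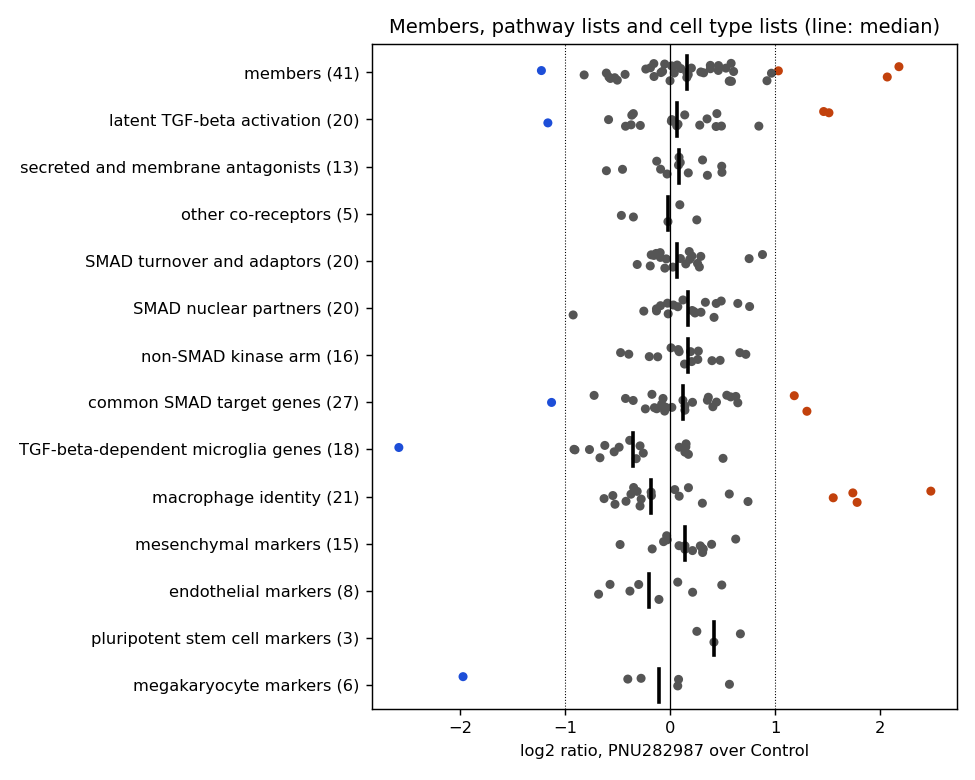
Log2 ratio of PNU282987 over Control for each compared gene of the members and of the pathway and cell type lists, with the number compared in brackets; the black line is the median and coloured points passed the 2-fold rule. The list medians run from -0.35 for the genes linked to TGF-beta in microglia to 0.42 for 3 pluripotent stem cell markers, and the members' median is 0.16.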

How the data were processed

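Whole read counts per annotated gene and assembled locus, with no normalization, were taken from the deposited table, per the file headers. The library kit was stranded and selected mRNA, per the labels' protocols. The submitters' processing notes name GRCh38, HISAT2 2.1.0, StringTie 2.1.3b, Trimmomatic 0.38, FastQC 0.11.7 and edgeR. Settings, strand use and multi-mapping are not stated there. More loci held 2 reads than 1 (979 against 817 in PNU282987, 958 against 818 in Control), so mates may have been counted singly, which would make the intervals too narrow.

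TMM factors over all rows, 1.01 for PNU282987 and 0.991 for Control, were computed in edgeR 4.0.16 (R 4.3.3) and applied to the totals. Ratios carry exact Clopper-Pearson and levels exact Poisson intervals at 95%, for counting error only. The floor of 3 reads stood at 0.0823 CPM in PNU282987 and 0.0770 CPM in Control. The call rule was tried on simulated counts with counting error only and planted changes of 4-fold or more. That trial leaves out the spread between cultures and changes near the 2-fold limit. Positions come from RefSeq, and transcript lengths and GC content from GENCODE. Named were members called or with an interval that excludes 1, the 2 highest per length in each role, and in each list up to 4 called genes or the 2 highest. Members, lists and this rule were chosen with earlier results of these data known. Beyond the rule CSF1R, ITGAV, NRROS, LRRC32, CDH5, POU5F1, GP1BA, ID1, ID2, HAMP, PMEPA1, KDR, P2RY12, GPR34, MERTK and the members with an interval that included 1 were chosen after their values were seen. Some values are not reported here. Software was Python 3.11.15 with SciPy 1.17.1, pandas 2.3.3, numpy 2.4.6 and matplotlib 3.10.9.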

Additional observations from a re-analysis of the deposited data

How the results depend on the processing

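The calls of ACVR1B and ACVRL1 as higher held under every alternative run. Library totals, upper quartile factors, DESeq2 1.42.0 size factors, halved counts and thinning of the deeper library left 3 members called higher and 1 lower, with a median log2 ratio of 0.15 to 0.18. With no CPM filter and at least 10 reads, 4 were called higher (BMPR1B added) and 2 lower (GDF7 added). A mean of at least 10 CPM left 2 higher and 0 lower, as did a 4-fold threshold, and these calls come from no replicated test. A 1.5-fold threshold gave 6 higher, adding INHBA, BMP5 and SKIL, and 3 lower, adding TGFBI and ENG. With the reads of overlapping rows added the median was 0.10, and BMP6 was no longer called. The rows added to BMP6 held 5824 reads in PNU282987 and 5047 in Control, far more than its own, so that sum cannot check its call. Once the GC and length trend was taken out, the median was 0.06 and the calls were the same 4 genes. That trend was known for 92.3% of the loci compared, and it changed the sign of SMAD1, SMAD2, SMAD4, LTBP4 and GDF11, none of them called. Its removal shifted 19 of the 41 members by about as much as their counting interval reaches to either side, or more. An alternative chosen after seeing the data left out the 9 members that overlap a row with reads, with a median of 0.13 over 32 members. No called member changed sign. No library could be left out. No paired analysis was possible because each group has 1 library and the comparison comes from no test.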
